A study of Saccharomyces cerevisiae with 8 samples.

Results

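The comparison described here set monosome footprints against global footprints in budding yeast, Saccharomyces cerevisiae, over all genes of the deposited count table. The groups compared were the 2 libraries labelled monosome and the 2 labelled global, 4 of the 8 libraries in the series. Each library's group came from its label. The table listed 6692 gene identifiers, and 5336 passed the low-count filter and were tested. All groups shared 1 growth condition and no perturbation: YEPD, a rich medium, 30 °C, harvest at an OD600 of 0.6, and 2 min of cycloheximide at 100 ug/ml before harvest. The labels name no strain or genotype. For the monosome group, extract was separated on a sucrose gradient, the single-ribosome fraction was treated with RNase I, and the digest went over another gradient. For the global group the whole extract was treated with RNase I and went over 1 gradient, so these libraries hold footprints of ribosomes that had been alone on an mRNA and of ribosomes that had been in polysomes. Fragments of 26 to 32 nt were taken in both. The polysome and mRNA libraries of the same series, 2 each, also entered the low-count filter, the scaling and the fit behind every call. Of the 5336 genes tested, 189 passed the filter only through the mRNA libraries. Beside some values the polysome and mRNA levels are given without a test.

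A ribosome footprint is the short stretch of mRNA that a translating ribosome shields from nuclease, and its count measures how many ribosomes sit on a gene's mRNAs. An mRNA that carries a single ribosome sediments as a monosome, and one that carries several sediments as a polysome. Short reading frames have room for few ribosomes, and mRNAs on which initiation is slow compared with elongation carry few at a time, whereas long or strongly initiated mRNAs are usually found in polysomes. Standard ribosome profiling digests the whole extract and averages over these pools. A level below is TMM-scaled CPM, the gene's counts relative to its library's counts in tested genes, divided by the library's TMM factor. The factors were 1.22 and 1.25 for the monosome, 1.20 and 1.26 for the global and 0.88 and 0.92 for the polysome libraries. For the mRNA libraries they were 0.69 and 0.77. Polysome and mRNA levels set beside the others therefore depend on this scaling. Percentages of counts are unscaled shares of a library. A level gives a gene's scaled part of the footprints of a pool and not the number of ribosomes per mRNA.

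The monosome libraries held 4723489 and 6443263 counts, and the global libraries 749057 and 552992, so the global libraries set the precision. Of the 5336 genes tested, 1140 had a mean of under 10 counts in the global libraries. Pearson's r across genes on log2(CPM + 1) was 0.994 between the monosome libraries, 0.966 between the global libraries and 0.914 to 0.930 between libraries of different groups. The labels do not say that the 2 libraries of a group came from separate cultures, so p-values measure the spread between these libraries only, which may be technical. With 2 libraries against 2, an exact permutation test of a single value cannot go below a two-sided p of 0.333. All calls therefore come from edgeR's quasi-likelihood test fitted over all genes, with Benjamini-Hochberg adjusted p-values and a threshold of 0.05. Values are written as mean ± SD over 2 libraries, and the standard error (SE) of a log2 fold change is derived from the test statistic.

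Footprints of 1186 genes were higher in monosomes than in the global libraries, 22.2% of those tested, and footprints of 1295 genes were lower, 24.3%. At least 2-fold differences were called for 539 genes on the higher side (10.1%) and 429 on the lower side (8.04%). The distribution was wider on the higher side. Its 5th percentile lay at a log2 fold change of -1.20 and its 95th at 1.57, around a median of -0.00. Most calls lay where the global libraries had counts to compare: 953 of the higher and 1268 of the lower genes had a mean of at least 10 global counts. No gene called in 1 direction was called in the other under any of the 14 alternative settings. All 14 settings called 516 of the higher genes and 659 of the lower genes.

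**Figure D1:**
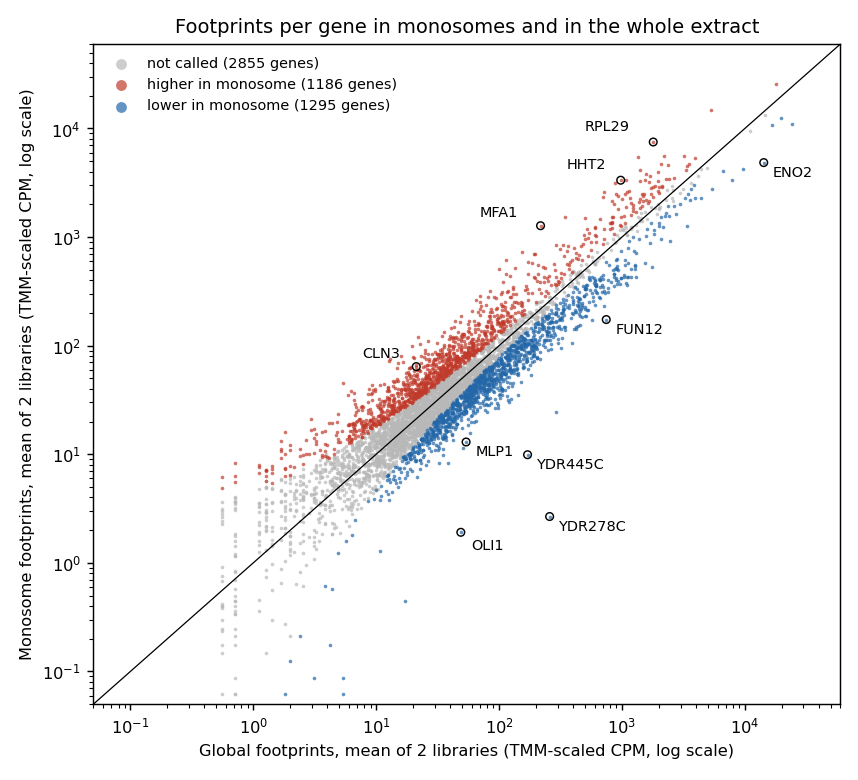
Mean TMM-scaled CPM of each gene in the 2 global libraries (x axis, log scale) and the 2 monosome libraries (y axis, log scale), with genes called higher or lower in monosomes coloured and a diagonal of equal levels. Among 5254 genes drawn, those called higher lie above and those called lower below the diagonal over most of the range of levels, and 82 tested genes with a mean of 0 in a group are left out.

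Of the 10 largest excesses in monosomes, 7 lay in genes of 375 nt or less. By a rule that took the 10 largest called differences with a required average of 50 counts, the first was YBL029C-A, an uncharacterised gene of 285 nt (chromosome II, 164488 to 164772, R64). It was at 47.1 and 43.7 CPM in the monosome libraries and 2.22 and 8.58 CPM in the global libraries (log2 fold change 3.17, SE 0.36). The monosome values lay far above both global values, which rested on 2 and 6 counts. The log2 fold change moved with the library left out: it was 2.39 without global replicate 1 and 4.32 without global replicate 2. HXT8, a member of the hexose transporter family (chromosome X, 26887 to 28596, R64), had 102 and 117 counts in monosomes and 2 and 1 in the global libraries, a ratio of library-scaled counts of 8.45 with a 95% counting interval of 2.85 to 41.3. HXT8 passed the low-count filter only through the monosome libraries, so its call follows in part from how it entered the test and is given as a description. This held for 67 of all genes tested, of which 21 were called higher and 0 lower. The other 8 genes were MRX19 (2.75), whose product is found with mitochondrial expression machinery, the RNA triphosphatase gene CTL1 (2.60), the a-factor pheromone gene MFA1 (2.54), SOM1 (2.50), which acts with the mitochondrial inner membrane peptidase, YDR034C-A (2.47), CDC26 (2.46), a small subunit of the anaphase-promoting complex, the stress-response gene DDR2 (2.45) and DPI8 (2.43). Without global replicate 1 the values of MRX19, SOM1 and YDR034C-A grew to 3.85, 3.61 and 3.40.

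Genes with many counts had smaller errors at differences of more than 2 on the log2 scale. MFA1, which encodes a precursor of the mating pheromone a-factor, has a reading frame of 111 nt (chromosome IV, 1385180 to 1385290, R64). It had 7055 and 10618 counts in the monosome libraries and 214 and 138 in the global libraries, or 1229.6 and 1315 CPM against 238 and 197 CPM (edgeR adjusted p = 4.73e-32, log2 fold change 2.54, SE 0.13). Both monosome values were above both global values, and the polysome libraries held 258 and 257 CPM. DPI8 reached 578 and 651 CPM in monosomes and 114 and 113 CPM in the global libraries (log2 fold change 2.43, SE 0.14). The groups did not overlap. ATP18, a small subunit of the mitochondrial ATP synthase (chromosome XIII, 103983 to 104162, R64), reached 479 and 533 CPM against 122 and 77.3 CPM (log2 fold change 2.31, SE 0.14), so its levels too were far apart. ICY1 was at 725 ± 0.116 CPM against 155 ± 20.2 CPM (log2 fold change 2.22, SE 0.13), PMP3, a short hydrophobic plasma membrane protein, at 1535 ± 83.4 against 344 ± 67.8 CPM (log2 fold change 2.15, SE 0.13), and RPL29, a short ribosomal protein, at 7507 ± 473 against 1797 ± 303 CPM (log2 fold change 2.06, SE 0.13). None of the 6 overlaps another annotated gene.

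**Figure D2:**
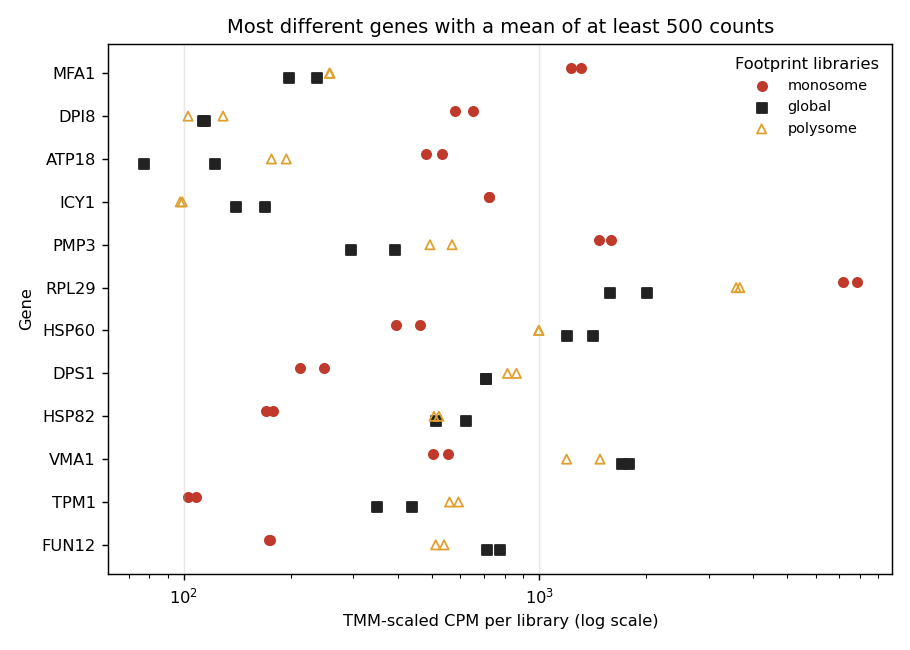
TMM-scaled CPM (log scale) in each monosome, global and polysome library for the 6 genes with the largest differences each way among genes averaging 500 counts or more; each point is 1 library. MFA1, DPI8, ATP18, ICY1, PMP3 and RPL29 have both monosome points above both global points, and FUN12, TPM1, VMA1, HSP82, DPS1 and HSP60 have both below.

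The 10 lowest genes by the same rule, which takes genes matched to the reference only, ran from EIS1 to BUD27. Lower values of mitochondrially encoded genes and unmatched identifiers are given further on. BUD27, which encodes an unconventional prefoldin needed for RNA polymerase assembly (chromosome VI, 90986 to 93376, R64), was at 11.7 and 11 CPM in monosomes and 48.9 and 52.9 CPM in the global libraries (log2 fold change -2.16, SE 0.23). FUN12, which encodes initiation factor eIF5B, the GTPase that joins the ribosomal subunits (chromosome I, 76427 to 79435, R64), was at 175 and 173 CPM in monosomes and 712 and 778 CPM in the global libraries (edgeR adjusted p = 1.13e-29, log2 fold change -2.10, SE 0.12). Neither gene's groups overlapped. MLP1, a filament protein of the nuclear basket, was at 13.0 ± 0.586 against 53.9 ± 5.43 CPM (log2 fold change -2.06, SE 0.22). DRS1 (-2.04), ECM16 (-1.97), SAS10 (-1.97), UTP14 (-1.90) and RRP14 (-1.87) all serve ribosome biogenesis, among them the helicases DRS1 and ECM16. EIS1 (-1.86) belongs to eisosomes, the furrows of the plasma membrane.

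TPM1 was the shortest of the 10. It encodes the major tropomyosin of actin cables in a reading frame of only 600 nt (chromosome XIV, 478566 to 479165, R64). It was at 108 and 103 CPM in monosomes and 349 and 439 CPM in the global libraries (log2 fold change -1.90, SE 0.12), so its monosome levels were far below both global levels, and its polysome level was 576 ± 23.5 CPM. Of the genes averaging 500 counts or more, the lowest after FUN12 and TPM1 were VMA1, a catalytic subunit of the vacuolar proton pump (-1.72, SE 0.13), HSP82, an Hsp90 chaperone (-1.70, SE 0.12), the aspartyl-tRNA synthetase gene DPS1 (-1.63, SE 0.12) and HSP60, the mitochondrial chaperonin (-1.61, SE 0.12). HSP82 fell from 568 ± 76.4 CPM in the global libraries to 174 ± 5.57 CPM in monosomes, with no overlap. HSP82 has a close paralog, HSC82, and how reads that match both were counted is not given in the sources used here.

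Difference and gene length went together over all tested genes with a known length. Of 161 genes of up to 300 nt, 106 were higher and 6 lower, with a median log2 fold change of 1.02. The median fell with each longer class. It was 0.47 for 638 genes of over 300 and up to 600 nt (288 higher, 60 lower), 0.10 for 1689 genes of over 600 and up to 1200 nt (463 higher, 333 lower), -0.13 for 1935 genes of over 1200 and up to 2400 nt (279 higher, 543 lower) and -0.40 for 841 genes of over 2400 nt (42 higher, 346 lower). Across 5264 genes Spearman's rho between length and log2 fold change was -0.342, given as a description because genes share libraries and are not replicates. The genes called higher had a median length of 822 nt and those called lower 1582.5 nt. Over the 14 alternative settings the median of the shortest class ran from 0.98 to 1.22 and that of the longest from -0.43 to -0.36.

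**Figure D3:**
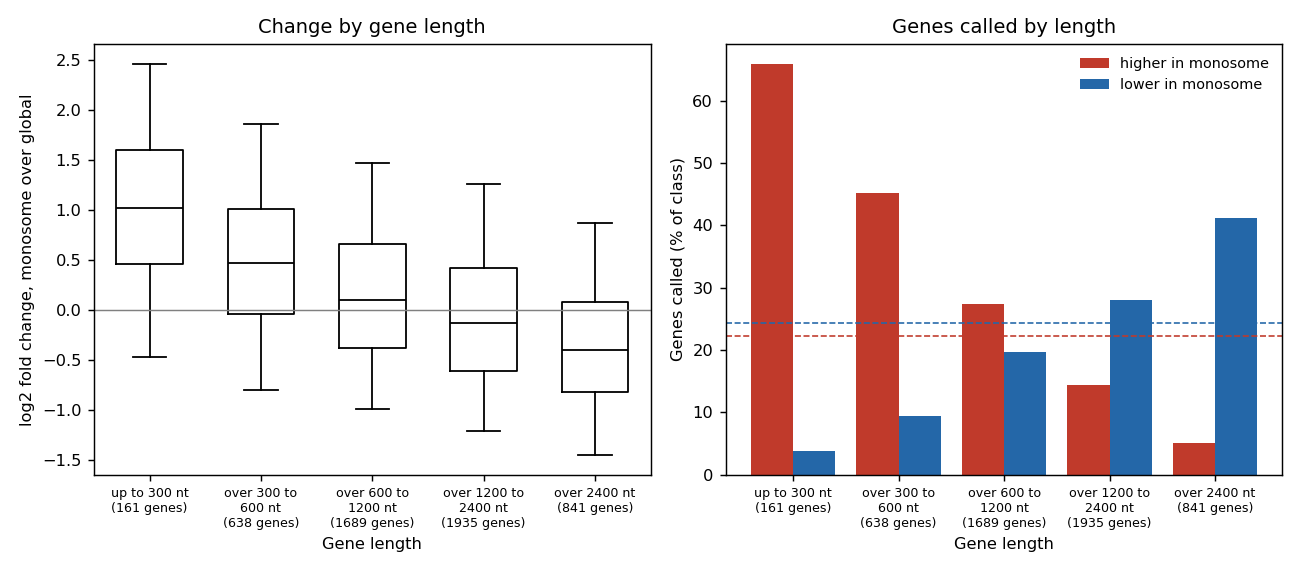
Log2 fold change of monosome over global footprints for genes in 5 classes of length; boxes span the quartiles with the median as a line and whiskers reach the 5th and 95th percentiles. The other panel gives the % of each class called higher or lower, with dashed lines at the shares of all genes. The medians step down from 1.02 in genes of up to 300 nt to -0.40 in genes of over 2400 nt, while the classes overlap widely.

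mRNA level alone went with the difference only weakly, with a rho of -0.0380 for mRNA CPM per kilobase. When the genes were split into 5 classes of that level, the length pattern was wider among abundant mRNAs. In the most abundant class 37 of 47 genes of up to 300 nt were higher (median 1.30), and 72 of 93 genes of over 2400 nt were lower (median -0.71). In the least abundant class 9 of 26 genes of up to 300 nt were higher (median 0.54), and 54 of 238 genes of over 2400 nt were lower (median -0.21). Calls were rarer in that class at all lengths together. There 737 of 1053 genes were not called, against 345 of 1053 in the most abundant class, so the medians compare better than the counts called.

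The protein synthesis machinery outside the ribosome was lower in monosomes. Of 20 cytosolic aminoacyl-tRNA synthetases, the enzymes that charge tRNAs, 19 fell and 0 rose with edgeR (DESeq2 called 0 higher, and 0 were higher at an unadjusted p of 0.05), against 24.3% of all genes lower, and their median log2 fold change was -1.21. THS1, the threonyl enzyme, was at 457 and 394 CPM in monosomes and 1002 and 1229 CPM in the global libraries (edgeR adjusted p = 1.49e-17, log2 fold change -1.39, SE 0.12). The groups lay far apart, as they did for DPS1, named above. Of 17 elongation and termination factors, 15 fell and 0 rose (DESeq2 called 0 higher, and 0 were higher at an unadjusted p of 0.05), with a median of -0.94. EFT2, one of a pair of near-identical genes for the translocation factor eEF2, was at 97.1 ± 3.29 against 235 ± 0.585 CPM (log2 fold change -1.27, SE 0.15), with reads that could belong to either copy. HBS1, which rescues stalled ribosomes, changed by -1.28 (SE 0.17). Of 27 initiation factors, 16 fell and 1 rose, with a median of -0.56.

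Initiation factors of several complexes were among those that fell. FUN12 and the poly(A)-binding protein gene PAB1 (-1.24, SE 0.12) fell most. Of 6 eIF3 subunits 4 fell, and of 6 genes of eIF4F and eIF4B 4 fell. Of 5 subunits of eIF2B, the exchange factor that recharges eIF2, 2 fell and 1 rose. That gene was GCD7, at 177 and 189 CPM in monosomes and 119 and 124 CPM in the global libraries (edgeR adjusted p = 9.14e-05, log2 fold change 0.59, SE 0.13), the single initiation factor with a called rise. Relative to the median of all genes of the same length class, the list medians were -0.90 for synthetases, -0.88 for elongation and termination factors and -0.45 for initiation factors.

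**Figure D4:**
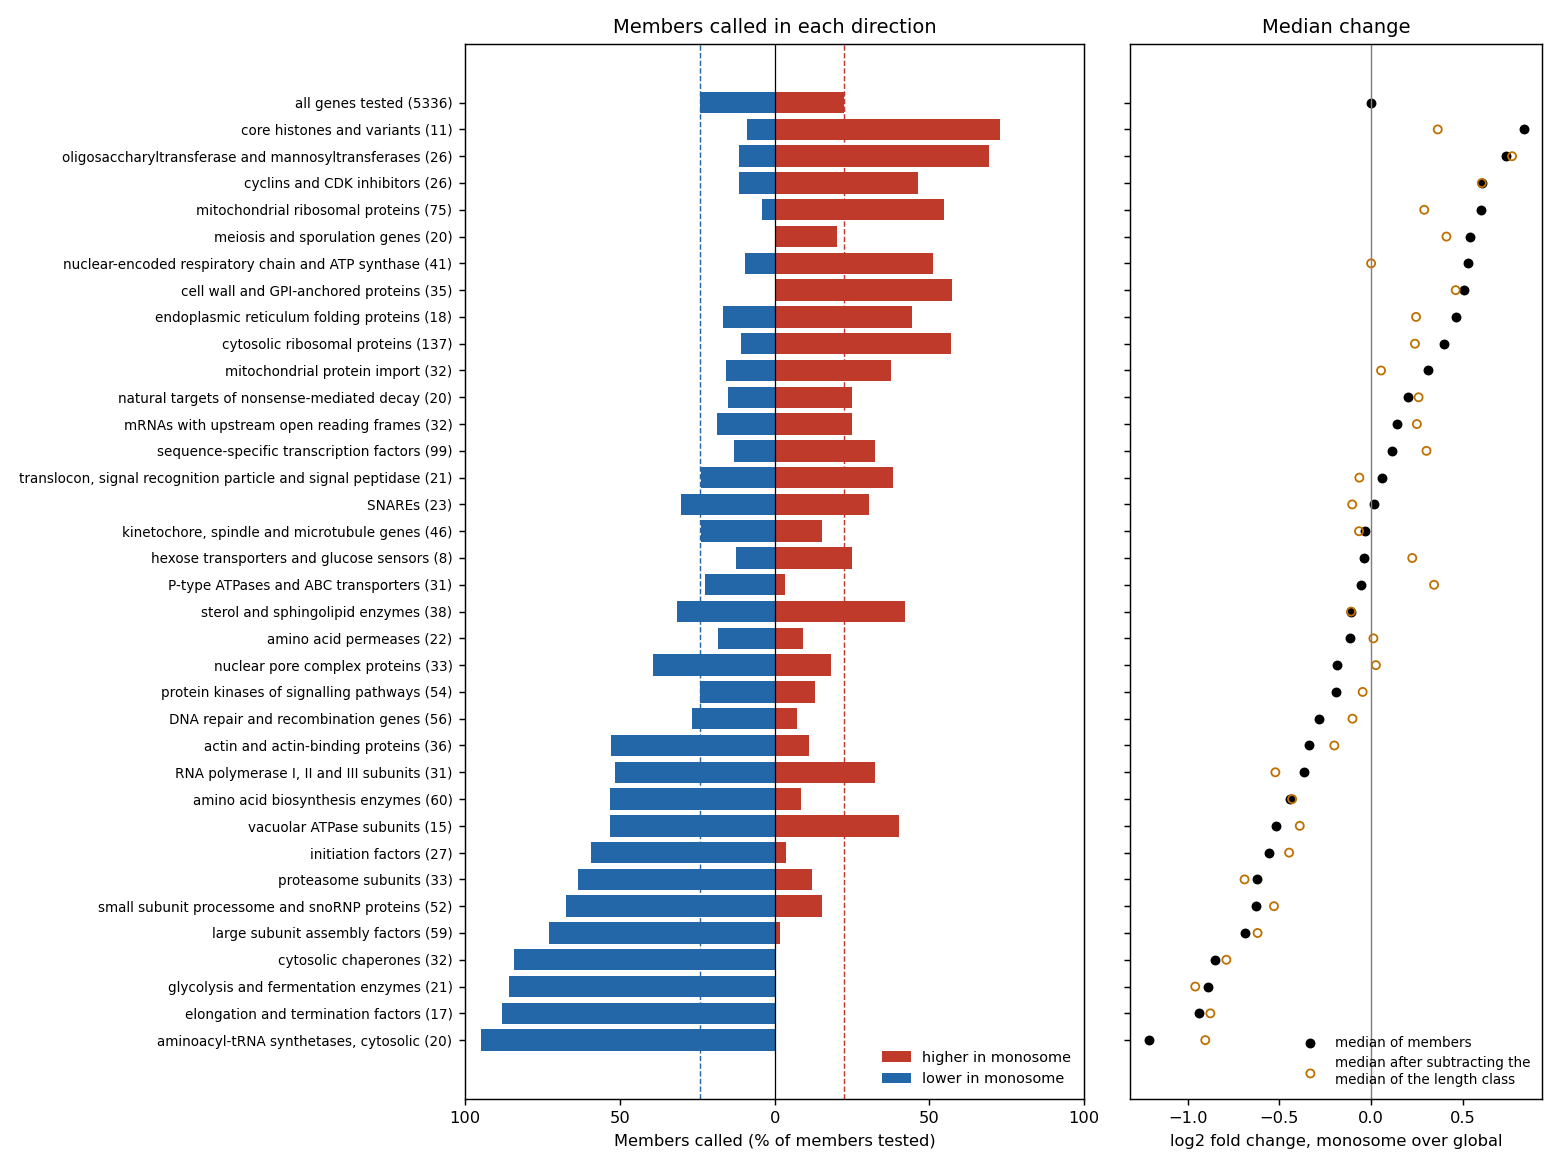
Left, members of each gene list called higher (bars to the right) or lower (bars to the left) in monosomes than in global footprints, as % of the members tested (number in brackets), with dashed lines at the shares of all genes; right, the list's median log2 fold change (filled) and the same after subtracting the median of each gene's length class (open). Mitochondrially encoded and frameshift genes are not drawn. Synthetases, elongation factors and glycolytic enzymes lie at the low end, with medians of -1.21 to -0.89, and histones, glycosylation enzymes, cyclins and mitochondrial ribosomal proteins at the high end, with medians of 0.60 to 0.83.

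Ribosomal proteins were on the other side. Of 137 cytosolic ribosomal protein genes, 78 rose (22.2% of all genes did) and 15 fell, with a median of 0.40. Together they took 34.2% and 32.9% of the counts of the monosome libraries, 26.0% and 24.6% of the global libraries and 29.5% of each polysome library. Of 76 genes of the large subunit 51 rose and 6 fell (median 0.51), and of 56 genes of the small subunit 24 rose and 8 fell (median 0.19). Of the 8 tested ribosomal protein genes of up to 300 nt 7 rose (87.5%), with a median of 1.32. This was near other short genes of abundant mRNAs. Of all genes of up to 300 nt 65.8% rose (median 1.02), and in the most abundant mRNA class 78.7% did (median 1.30). RPL41A, the shortest ribosomal protein, was at 3365 and 2911 CPM in monosomes and 819 and 924 CPM in the global libraries (log2 fold change 1.85, SE 0.13). It has a near-identical copy, RPL41B, so its reads could belong to either. RPS6A (-1.06, SE 0.13) and RPL3 (-0.99, SE 0.14) fell. RPL3 was at 2865 and 2624 CPM in monosomes and 5653 and 5222 CPM in the global libraries, with no overlap.

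The factors that build ribosomes did not follow the ribosomal proteins. Of 59 large subunit assembly factors 43 fell and 1, ALB1 (0.87, SE 0.14), rose, with a median of -0.69. Of 52 proteins of the small subunit processome and snoRNPs 35 fell and 8 rose, with a median of -0.63. The members that rose included the small snoRNP proteins SNU13 (1.84, SE 0.13) and NOP10 (1.38, SE 0.13). SNU13 was at 2726 and 2429 CPM in monosomes and 766 and 671 CPM in the global libraries, and the groups did not overlap. Of 31 subunits of RNA polymerases I, II and III 16 fell and 10 rose (median -0.37). All 9 subunits encoded by genes of over 1200 nt fell, and of the 22 encoded by shorter genes 10 rose and 7 fell, a split made after the values were seen. RPO31, the largest subunit of polymerase III (-1.50, SE 0.15), and RPB2 of polymerase II (-1.17, SE 0.12) were among those that fell, and RPC25 (1.30, SE 0.17) and RPB11 (1.12, SE 0.15) among those that rose.

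Glycolytic enzymes, which are among the most heavily translated mRNAs of yeast in glucose, were lower in monosomes. Of 21 genes of glycolysis and fermentation 18 fell and 0 rose (DESeq2 called 0 higher, and 0 were higher at an unadjusted p of 0.05), with a median of -0.89. They took 10.1% and 9.60% of the monosome counts, 16.6% and 16.1% of the global counts and 19.1% and 18.3% of the polysome counts. The enolase gene ENO2 was at 5096 and 4606 CPM in monosomes and 14364 and 14137 CPM in the global libraries (edgeR adjusted p = 3.92e-16, log2 fold change -1.55, SE 0.15). ENO1, the other enolase gene, of closely similar sequence, fell by a similar amount (-1.51, SE 0.13), and both genes' groups lay far apart. The gene with the most counts in each global and polysome library was PDC1, pyruvate decarboxylase, at 2.97% and 2.95% of the global counts and 1.39% and 1.35% of the monosome counts. In both monosome libraries it was CCW12, a cell wall mannoprotein, at 2.99% and 3.34%, against 2.25% and 2.21% in the global libraries. CCW12 took 2.97% and 2.74% of the polysome counts, so its polysome share was above the global one too.

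**Figure D5:**
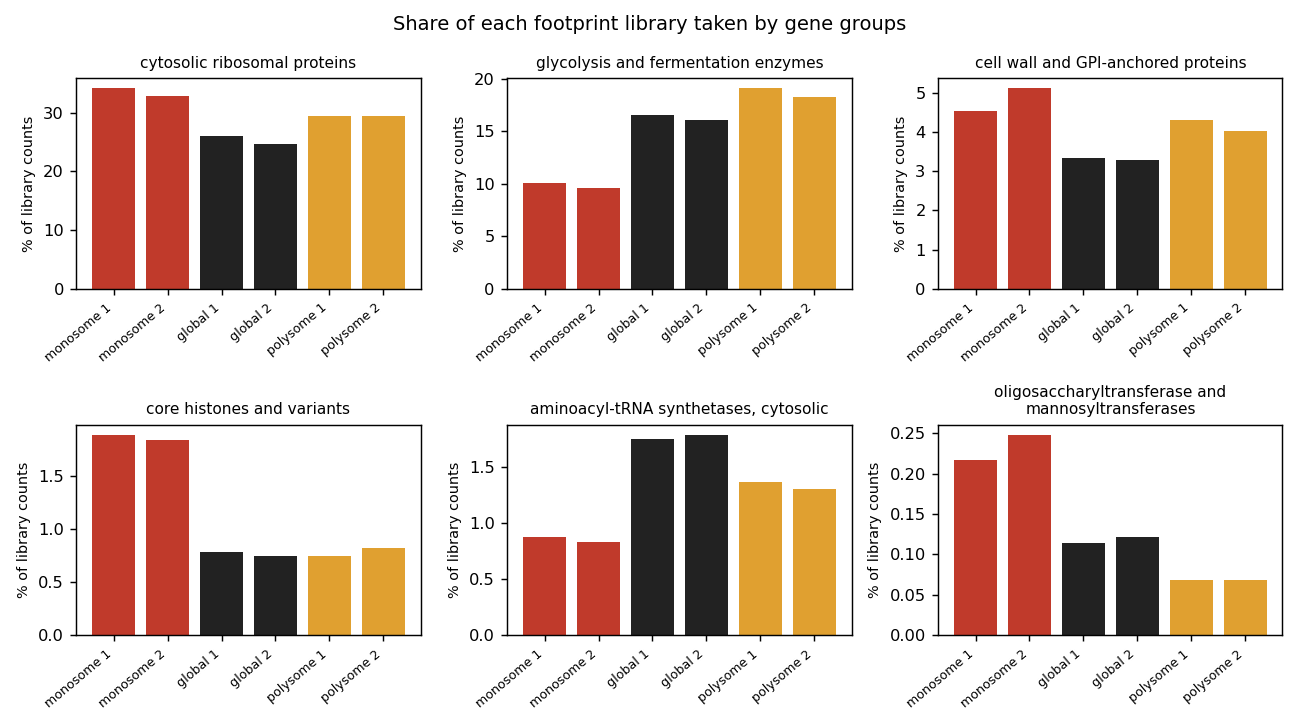
Share of each footprint library's counts (%) taken by 6 gene groups, 1 bar per library, with separate y axes that start at 0. Ribosomal proteins, cell wall proteins, histones and glycosylation enzymes take a larger share of both monosome libraries than of both global libraries, and glycolytic enzymes and aminoacyl-tRNA synthetases a smaller one.

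Cytosolic chaperones, proteasome subunits and amino acid enzymes also leaned to the lower side. Of 32 chaperones 27 fell and 0 rose (DESeq2 called 0 higher, and 0 were higher at an unadjusted p of 0.05), with a median of -0.85. All 8 subunits of the CCT chaperonin, which folds actin and tubulin, fell, with a median of -0.96, and CCT6 changed by -1.50 (SE 0.13). Of 33 proteasome subunits 21 fell and 4 rose (median -0.62), with 2 called higher by DESeq2. RPN1 (-1.56, SE 0.12) and RPN10 (-1.27, SE 0.13) of the regulatory particle fell. PRE4 (0.89, SE 0.12) and SCL1 (0.40) of the core rose, the latter not without global replicate 2 (adjusted p = 0.0698). Of 60 amino acid biosynthesis enzymes 32 fell and 5 rose (median -0.44). ARO1, a pentafunctional enzyme of the shikimate pathway, fell from 326 ± 18.3 CPM to 118 ± 1.05 CPM (log2 fold change -1.46, SE 0.13), and HIS4 fell as well (-1.44, SE 0.13). LYS20, a homocitrate synthase, rose from 196 ± 2.17 CPM in the global libraries to 421 ± 40.1 CPM in monosomes (log2 fold change 1.11, SE 0.13).

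Subunits of the vacuolar proton pump were called in both directions. Of the 8 genes of V1, the soluble sector that hydrolyses ATP, 5 fell (62.5%) and 2 rose (25%). Of the 7 genes of Vo, the membrane sector that moves protons, 4 rose (57.1%) and 3 fell (42.9%). Of all genes 22.2% rose and 24.3% fell. VMA2 of V1 was at 455 and 392 CPM in monosomes and 1044 and 926 CPM in the global libraries (log2 fold change -1.22, SE 0.13). VMA3, the proteolipid of Vo, was at 811 and 979 CPM in monosomes and 562 and 554 CPM in the global libraries (log2 fold change 0.68, SE 0.12). VMA7, a short subunit of V1, rose by 1.40 (SE 0.13). The groups of all these genes were separate. The difference between the sectors was not tested, and their genes also differed in length, with a median of 975 nt in V1 and 642 nt in Vo.

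Genes of the secretory pathway and the cell surface were among the groups higher in monosomes. Oligosaccharyltransferase and the mannosyltransferases attach sugars to proteins in the endoplasmic reticulum and Golgi. Of their 26 genes 18 rose (69.2%, beside 22.2% of all genes) and 3 fell (11.5%, beside 24.3%). Their median was 0.74, or 0.77 above genes of the same length class. Their share of counts was 0.217% and 0.248% in monosomes, 0.115% and 0.122% in the global libraries and 0.0676% and 0.0680% in polysomes. Of the 9 subunits of oligosaccharyltransferase, which transfers the N-glycan to new chains, 8 rose (88.9%). OST5 was at 295 and 337 CPM in monosomes and 110.0 and 58.7 CPM in the global libraries (log2 fold change 1.86, SE 0.15). MNN9, a Golgi mannosyltransferase subunit, was at 98.3 and 121 CPM in monosomes and 34.4 and 18.6 CPM in the global libraries (edgeR adjusted p = 1.08e-14, log2 fold change 2.00, SE 0.20). The monosome values of both were far above the global ones. The O-mannosyltransferases of the PMT family went both ways, 2 higher and 2 lower of 6 (33.3% each). PMT1 fell (-1.16, SE 0.18), as did PMT4 (-0.48), which did not pass without global replicate 2 (adjusted p = 0.334) or without monosome replicate 2 (adjusted p = 0.0950).

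Of 35 cell wall and GPI-anchored proteins 20 rose (57.1%, beside 22.2% of all genes) and 0 fell (24.3% of all genes did), with a median of 0.50. DESeq2 called 0 lower, and 0 were lower at an unadjusted p of 0.05. Their share of counts was 4.56% and 5.13% in monosomes, 3.35% and 3.28% in the global libraries and 4.31% and 4.05% in polysomes. The polysome share was thus also above the global one. PST1 was at 91.3 and 96.6 CPM in monosomes and 38.9 and 45.8 CPM in the global libraries (log2 fold change 1.17, SE 0.18), and the GPI-anchored protease gene YPS1 rose too (1.10, SE 0.20). Of 18 folding proteins of the endoplasmic reticulum 8 rose and 3 fell (median 0.46, or 0.24 above genes of the same length class), whereas DESeq2 called 4 higher and 2 lower. SIL1, an exchange factor for the lumenal Hsp70 (1.96, SE 0.32), and the thiol oxidase gene ERO1 (1.17, SE 0.18) rose. The disulfide isomerase gene PDI1 fell (-0.66, SE 0.14). SCJ1 was also called lower (-0.75) but not without global replicate 1 (adjusted p = 0.257), global replicate 2 (0.0562) or monosome replicate 1 (0.0915). Of 21 genes of the translocon, signal recognition particle and signal peptidase 8 rose (38.1%) and 5 fell (23.8%, near the 24.3% of all genes), with a median of 0.06 and 3 called lower by DESeq2. SBH1 (1.78, SE 0.13) and SPC3 (1.43, SE 0.19) were higher. SRP54 (-0.95, SE 0.13) and SRP72 (-0.72, SE 0.14), which belong to the signal recognition particle, were lower. Of the particle's 6 tested proteins 3 fell, 1 rose and 2 were not called.

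Amino acid permeases, P-type ATPases and ABC transporters were called higher less often than all genes, with medians near 0. Of 22 amino acid permeases 2 rose (9.09%) and 4 fell (18.2%), with a median of -0.11. Of 31 P-type ATPases and ABC transporters 1 rose (3.23%) and 7 fell (22.6%), with a median of -0.05. Of all genes 22.2% rose and 24.3% fell. NEO1, a lipid flippase, rose from 32.8 ± 3.89 CPM to 60.8 ± 0.00650 CPM (log2 fold change 0.88, SE 0.20), and the drug exporter gene SNQ2 fell (-1.50, SE 0.16). PDR15, another exporter, was called lower (-0.88) but not without global replicate 2 (adjusted p = 0.192) or monosome replicate 1 (0.0556). The dicarboxylic amino acid permease gene DIP5 rose (0.81, SE 0.13), and the choline permease gene HNM1 (-0.98, SE 0.28) and the lysine permease gene LYP1 (-0.70, SE 0.19) fell. MUP3 was called higher (1.31) with 1 and 12 global counts. It was at 0.23 (adjusted p = 0.725) without global replicate 1 and at 4.14 without global replicate 2. Only 8 of 19 hexose transporters and glucose sensors were tested. The low-affinity transporter gene HXT1 rose (1.14, SE 0.17) and HXT3 fell (-1.01, SE 0.17). The near-identical HXT6 and HXT7 had 0 and 1 counts over all 8 libraries, so their level is not measured by this table.

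Sterol and sphingolipid enzymes were also divided. Of 38 tested, 16 rose and 12 fell (median -0.11). Among 14 genes of sterol synthesis 4 rose (28.6%) and 7 fell (50%), with a median of -0.30, beside 22.2% higher and 24.3% lower of all genes. The dehydratase gene PHS1 of very long chain fatty acid synthesis (1.82, SE 0.16) and the sterol isomerase gene ERG2 (1.52, SE 0.14) rose. ERG20, the farnesyl diphosphate synthase, was at 151 and 129 CPM in monosomes and 355 and 332 CPM in the global libraries (log2 fold change -1.31, SE 0.12), with no overlap. The sterol methyltransferase gene ERG6 fell by a like amount (-1.20, SE 0.12).

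Nuclear genes for mitochondrial proteins were more often higher than lower. Of 75 mitochondrial ribosomal proteins 41 rose and 3 fell (median 0.60, or 0.29 above genes of the same length class), with 1 called lower by DESeq2. MRP10 was at 268 and 264 CPM in monosomes and 58.9 and 70.1 CPM in the global libraries (log2 fold change 2.06, SE 0.15), and MRP35 rose as well (1.59, SE 0.21). The groups of MRP10 were well apart. MRPS5 (-0.71) and MRPS16 (-0.62) were called lower, MRPS5 not without global replicate 1 (adjusted p = 0.143), and MRPS16 not without global replicate 1 (0.156), global replicate 2 (0.118) or monosome replicate 2 (0.0726). Of 41 nuclear-encoded subunits of the respiratory chain and ATP synthase 21 rose and 4 fell. Their median was 0.53, and 0.00 relative to genes of the same length class. The small subunit gene ATP14 rose from 69.9 ± 22 CPM to 288 ± 15.6 CPM (log2 fold change 2.01, SE 0.15), and ATP1, the alpha subunit of the catalytic head (-0.87, SE 0.13), and COR1 of complex III (-0.67, SE 0.16) fell. Of 32 mitochondrial import genes 12 rose and 5 fell, with 2 called lower by DESeq2. Their median was 0.31, but 0.05 relative to genes of the same length class. TOM6 (1.95, SE 0.13) and TOM7 (1.41, SE 0.13), short subunits of the outer membrane channel, rose, and so did 4 of the 5 small Tim chaperones. SSC1, the matrix Hsp70 that pulls precursors in, fell (-1.31, SE 0.12). PAM16 was called lower (-0.49) but not without global replicate 1 (adjusted p = 0.160), global replicate 2 (0.0697) or monosome replicate 2 (0.112).

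The genes of the mitochondrial genome, which are translated by mitochondrial ribosomes inside the organelle, had few counts in every footprint library. Of their 7 protein genes that were tested, COX1, COX2 and ATP8 passed the low-count filter only through the mRNA libraries, so their calls rest on a handful of footprints and no tally of the list is read here. OLI1, the proteolipid of ATP synthase, had 7 and 21 counts in the monosome libraries, 48 and 31 in the far shallower global libraries and 0 in both polysome libraries. This is 1.22 and 2.60 CPM in monosomes against 53.3 and 44.4 CPM in the global libraries (edgeR adjusted p = 1.43e-21, log2 fold change -4.59, SE 0.34). ATP6, another membrane subunit of the enzyme, had 0 counts in both monosome libraries and 5 and 14 in the global libraries, at least 27.3-fold lower in monosomes when a floor of 3 counts per library is put in place of 0. COX3, a core subunit of cytochrome oxidase, had 0 in both monosome libraries against 6 and 5, at least 15.8-fold lower. ATP8 had 0 in both against 6 and 0, at least 8.64-fold lower, and was not called lower without global replicate 1 (adjusted p = 1). COB had 1 and 0 against 3 and 2 counts and COX1 0 and 1 against 2 and 1, and both overlap genes encoded in their introns. Of these COX1 did not pass without global replicate 1 (adjusted p = 0.213), global replicate 2 (0.0506) or monosome replicate 1 (0.0764). COX2, which overlaps another annotated gene, with 1 and 2 against 1 and 2 counts, was not called with edgeR (adjusted p = 0.0759). Together these genes made up 0.00988% and 0.0101% of the global counts, 0.000191% and 0.000372% of the monosome counts, and 5.76e-05% and 6.67e-05% of the polysome counts.

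Of the 684 identifiers that did not match the R64 reference, 72 were tested. Of these 8 were higher (11.1%, beside 22.2% of all genes) and 7 lower (9.72%, beside 24.3%), and the members named below are the most different ones. They have no name, length or position here. YDR278C had 15 and 22 counts in the monosome libraries and 230 and 182 in the global libraries (log2 fold change -6.57, SE 0.34), YDR445C had 61 and 74 against 101 and 160 (-4.08, SE 0.24), and YOL013W-A had 124 and 218 against 227 and 232 (-3.56, SE 0.17). All 3 were low in polysomes too, at 2.41 ± 0.0730, 9.89 ± 2.16 and 12.2 ± 1.56 CPM, and high in the mRNA libraries, at 14655 ± 12357, 47880.3 ± 9445 and 9287 ± 841 CPM. They thus combined a high RNA level with few footprints in the ribosome fractions, and whether their reads in the global libraries come from ribosomes was not tested. On the higher side YFR034W-A (2.41, SE 0.34) grew to 3.08 without global replicate 1, and YDR340W was at 1.55 (SE 0.31). YEL045C (1.71) grew to 2.50 without global replicate 1 and did not pass without global replicate 2 (adjusted p = 0.0528). YDR133C (0.75) did not pass without global replicate 2 (0.293) or monosome replicate 1 (0.0885).

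The histone genes had the highest median of all lists, 0.83, with 8 of 11 genes higher and 1 lower. They took 1.89% and 1.83% of the counts in monosomes, 0.781% and 0.748% in the global libraries and 0.747% and 0.823% in polysomes. HHT2, which encodes histone H3 (chromosome XIV, 575640 to 576050, R64), was at 3596 and 3081 CPM in monosomes and 1049.6 and 904 CPM in the global libraries (edgeR adjusted p = 2.75e-22, log2 fold change 1.77, SE 0.13). HTB1, which encodes histone H2B, was at 3382 and 3394 CPM in monosomes and 1159.6 and 1010.1 CPM in the global libraries (edgeR adjusted p = 1.26e-20, log2 fold change 1.64, SE 0.13). For both genes the monosome levels were far above the global ones. The 8 that rose were the canonical core histone genes, which exist in pairs with closely similar coding sequences. CSE4, the centromeric variant of H3, was called lower (-0.87) but not without global replicate 1 (adjusted p = 0.111). The median of the list was 0.36 above that of genes of the same length class.

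Regulators of the cell cycle and of transcription were more often higher. Of 26 cyclins and CDK inhibitors 12 rose (46.2%, beside 22.2% of all genes) and 3 fell (11.5%, beside 24.3%). Their median was 0.61, and 0.60 relative to genes of the same length class. Of the 10 cyclins of the Pho85 kinase 6 rose (60%, median 0.83). PCL5, whose product restrains Gcn4, was at 31.4 and 39.9 CPM in monosomes and 6.66 and 11.4 CPM in the global libraries (log2 fold change 2.03, SE 0.34). CLN3, the G1 cyclin that starts the cycle, was at 58.9 and 69.4 CPM in monosomes and 26.7 and 15.7 CPM in the global libraries (edgeR adjusted p = 1.26e-08, log2 fold change 1.56, SE 0.23). Both genes' groups were clearly separate. The Pho85 inhibitor gene PHO81 fell (-0.68, SE 0.19), and CLB4 was called lower (-0.85) but not without global replicate 2 (adjusted p = 0.257). Of 99 sequence-specific transcription factors 32 rose (32.3%, beside 22.2% of all genes) and 13 fell (13.1%, beside 24.3%). Their median was 0.12, or 0.30 above genes of the same length class. GCN4, which switches on genes of amino acid synthesis, was at 79.1 and 90.2 CPM in monosomes and 34.4 and 22.9 CPM in the global libraries (edgeR adjusted p = 4.60e-10, log2 fold change 1.53, SE 0.20). The repressor gene NRG1 rose (1.85, SE 0.22), and the drug resistance regulator gene PDR1 (-1.02, SE 0.20) and REB1 (-0.99, SE 0.14), a general regulatory factor, fell.

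Of 54 signalling kinases 7 rose (13.0%, beside 22.2% of all genes) and 13 fell (24.1%, beside 24.3%), with a median of -0.19. KSS1, a MAP kinase of filamentous growth, rose (1.29, SE 0.22), and GCN2, the eIF2 kinase (-1.45, SE 0.23), and YPK1 (-1.08, SE 0.17) fell. BCK1 was called higher (0.89) but not without global replicate 1 (adjusted p = 0.0597) or global replicate 2 (0.107). Of 60 meiosis and sporulation genes 20 were tested, and 5 of these passed the low-count filter only through the monosome libraries and 4 only through the mRNA libraries. The edgeR calls were 4 higher (20%, beside 22.2% of all genes) and 0 lower (DESeq2 called 2 higher and 0 lower, and 0 were lower at an unadjusted p of 0.05), and because of the filter nothing is read from their direction. REC107 rose by 1.42 (SE 0.32) with 9 and 8 global counts. RMD6 was called higher (1.81) but was at 1.10 (adjusted p = 0.173) without global replicate 1 and at 2.77 without global replicate 2.

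Genes known for special features of translation did not form 1 pattern. Of 32 genes with documented upstream open reading frames 8 rose (25%) and 6 fell (18.8%), beside 22.2% and 24.3% of all genes, with a median of 0.14. CLN3, given above among the cyclins, is also on this list and rose (1.56, SE 0.23) on 24 and 11 global counts. ARV1 rose (2.37) on 1 and 5 global counts, at 1.44 without global replicate 1 and 4.09 without global replicate 2. CPA1, whose leader encodes an attenuator peptide, was called higher (0.56) but not without global replicate 2 (adjusted p = 0.167). FOL1 was called lower (-0.84) but not without global replicate 1 (adjusted p = 0.391), and IMD4, which holds the snoRNA gene SNR54 within it, fell (-0.73, SE 0.13). The 20 tested mRNAs on the list of reported natural targets of nonsense-mediated decay had 5 that rose (25%) and 3 that fell (15%), with a median of 0.20. RPS29A rose (1.37, SE 0.12) and YRA1 fell (-0.51, SE 0.12). FZF1 was called lower (-0.69) but not without global replicate 2 (adjusted p = 0.345) or monosome replicate 1 (0.0584). The 3 genes with programmed frameshifts went 3 ways. EST3, a telomerase subunit, averaged 46.8 ± 3.31 CPM in monosomes, against 15 ± 7.10 CPM in the global libraries (log2 fold change 1.69, SE 0.27). ABP140 fell (-1.23, SE 0.13). OAZ1, the antizyme, was at 12.7 and 12.4 CPM in monosomes and 15.5 and 8.58 CPM in the global libraries, which overlap (log2 fold change 0.01, edgeR adjusted p = 0.991), and its log2 fold change was -0.32 without global replicate 2.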

How the data were processed

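Raw read counts by gene were deposited for each library, per the file headers. TopHat, Bowtie and HTSeq are named without versions, per the submitters' processing notes. Strand use in counting and the handling of reads with several matches are not given in the sources used here. The log2 fold changes and adjusted p-values that the authors deposited beside the counts, from DESeq2 per the file headers, were not used.

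Counts of all 8 libraries were fitted together with edgeR 4.0.16 (R 4.3.3; 4 groups, TMM factors, filterByExpr with a minimum count of 10 and a minimum total of 15, quasi-likelihood F test). The monosome minus global contrast was adjusted by the Benjamini-Hochberg method over 5336 genes. The SE is the absolute log2 fold change divided by the square root of F. DESeq2 1.42.0 was an alternative, and the fit was tested on simulated counts. Names, lengths and positions come from the R64 table, which matched 6008 of 6692 identifiers. Length runs from start to end of a gene, introns included. Counting intervals (95%) and floors (3 counts per library) cover counting error only. Tables and figures used Python 3.11.15.

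The comparison and the 37 gene lists were chosen with earlier results of these data known, and the subunits of complexes after the values were seen. Named genes are the 10 largest called and not overlapping differences each way at a mean of at least 50 counts, 6 at 500, up to 4 each way among unmatched identifiers and up to 2 each way per list, with a few chosen by name.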

Additional observations from a re-analysis of the deposited data

How the results depend on the processing

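The counts of 1186 genes higher and 1295 lower stayed within 1.5 times under all 14 alternatives run. The fit on the 4 compared libraries alone gave 1271 higher and 1235 lower, and that on the 6 footprint libraries 1334 and 1229. The count of genes at least 2-fold lower moved from 429 to 211 with a mean of at least 100 counts required, a setting that tests 3086 genes. With 1 library left out at a time, 823 to 1143 genes were higher, 983 to 1227 lower, 478 to 549 at least 2-fold higher and 361 to 466 at least 2-fold lower. An arm left with 1 library is assumed to vary like the other groups. With the replicate number as a block, 1199 genes were higher and 1312 lower, and 523 and 425 at least 2-fold. The labels share only a number, and same-numbered monosome and global libraries did not deviate together (r = 0.0133 across genes), so the block is not taken as a pairing. Of 153 named genes, 122 kept their call and direction under every alternative that tested them, and none was reversed. The fit on the 4 compared libraries alone tested 148 of them. With the libraries thinned to 552992 counts, 18 lost their call. The other scalings (RLE, library totals, TMM without ribosomal proteins) moved the median of all genes by under 0.02 and changed the sign of no list's median. The medians of hexose transporters, permeases, P-type ATPases and ABC transporters, SNAREs, sterol enzymes, genes with upstream reading frames, frameshift genes and microtubule genes lay near 0 and changed sign under other settings. A planned split by membrane proteins was not run because protein sequences were not used here. The depth of the global libraries limits genes with few counts there.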

Other observations

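The structural lists of the cell showed mixed differences. Of 36 actin and actin-binding genes 19 fell and 4 rose (median -0.34), with the bundling protein gene SAC6 at -1.74 (SE 0.12) and the small Arp2/3 subunit gene ARC18 at 1.13 (SE 0.13). CAP1 was called higher (0.45) but not without global replicate 1 (adjusted p = 0.104), global replicate 2 (0.0685) or monosome replicate 1 (0.0742). Of 46 kinetochore, spindle and microtubule genes 11 fell (23.9%, near the 24.3% of all genes) and 7 rose (15.2%, beside 22.2%), with a median of -0.03. The tubulin genes TUB2 (-1.58, SE 0.12) and TUB1 (-1.35, SE 0.13) fell, and the small DASH complex genes DAD1 (1.57, and 2.43 without global replicate 1) and DAD4 (1.13, SE 0.21) rose. Of 33 nuclear pore proteins 13 fell (39.4%) and 6 rose (18.2%, 3 of the 33 with DESeq2), with a median of -0.18. NUP133 was at -1.03 (SE 0.15) and the membrane protein gene POM33 at 1.55 (SE 0.20). POM34 was called higher (0.76) but not without global replicate 1 (adjusted p = 0.242).

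Of 23 SNAREs, the proteins that fuse vesicles, 7 rose and 7 fell, with a median of 0.02. This is 30.4% each, beside 22.2% higher and 24.3% lower of all genes, and DESeq2 called 6 higher and 6 lower. SNC1 rose (0.97, SE 0.15) and SEC9 fell (-1.58, SE 0.18). VAM3 was called higher (0.86) but not without global replicate 1 (adjusted p = 0.224), and TLG2 lower (-0.90) but not without global replicate 1 (0.0589) or global replicate 2 (0.0538). Of 56 DNA repair and recombination genes 15 fell (26.8%, near the 24.3% of all genes) and 4 rose (7.14%), with a median of -0.28. The long mismatch repair gene MSH3 (-1.50, SE 0.27) and RAD5 (-1.20, SE 0.24) fell. RAD55 was called higher (1.30) but was at 2.78 without global replicate 1 and did not pass without global replicate 2 (0.69, adjusted p = 0.222). RAD18 (1.24) did not pass without global replicate 1 (adjusted p = 0.0881).

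The global libraries did not always lie between the fractions. Among 3483 tested genes that averaged 100 counts or more over the 6 footprint libraries, both global libraries were below all 4 monosome and polysome libraries for 677 genes (median length 786 nt) and above all 4 for 487 genes (median length 2337 nt). They lay between the monosome and the polysome libraries for 799 genes. Of 571 genes of over 2400 nt, 235 had both global libraries above all others. Scaled by library totals instead, the numbers were 242 below, 1174 above and 764 between, so the split depends on the scaling. RPL29, at 1797 ± 303 CPM in the global libraries, 7507 ± 473 in monosomes and 3630.0 ± 60.0 in polysomes, was below, and FUN12, at 745 ± 46.9, 174 ± 1.04 and 526 ± 20.2, was above. This count was made after the values were seen and was not tested.

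Among chromosomes, VI had 38 of 98 tested genes lower (38.8%) and 14 higher, with a median log2 fold change of -0.36, against 24.3% lower over all genes. This was noticed after the values were seen and was not tested. ATG40, a receptor for autophagy of the endoplasmic reticulum that was also picked after its values were seen, had 53 and 59 counts in the monosome libraries and 0 and 1 in the global libraries, a library-scaled ratio of 13.0 with a 95% counting interval of 2.28 to 517.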
